A study of Mus musculus with 8 samples.

Results

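The genes described are 10 genes of fatty acid and triglyceride synthesis, chosen by gene name from the 56748 genes in the deposited tables. All 10 were found (Fasn, Acaca, Acly, Elovl6, Srebf1, Mlxipl, Dgat1, Dgat2, Gpam and Agpat2), and all 10 were among the 18495 genes that passed the filter on low counts. RNA came from whole skin of 8 male mice, taken when they were 35 weeks old. In the NPY-tet group 3 mice carried the Npy allele of strain B6;129S4-Npytm2Rpa/J on both chromosomes (NPY tet/tet), and the wild-type (WT) group held 5 siblings (NPY +/+). No treatment was applied to either group, and both were reared under the same standard conditions. The labels name no transactivator or promoter for the allele, and whole skin takes in epidermis, hair follicles, sebaceous glands, dermal fat and the muscle beneath.

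Cells build fatty acids from citrate that leaves the mitochondrion. ATP citrate lyase splits it into acetyl-CoA, acetyl-CoA carboxylase turns that into malonyl-CoA, and fatty acid synthase joins malonyl units into palmitate, which elongases lengthen. Fatty acids are then placed one after another on glycerol phosphate, by glycerol-3-phosphate acyltransferase, by acylglycerophosphate acyltransferase and, after loss of the phosphate, by diacylglycerol acyltransferase. SREBP-1, which responds to insulin and sterols, and ChREBP, which responds to glucose, drive transcription of many of these enzymes. In skin the pathway runs in fat cells of the dermis, in sebaceous glands and in keratinocytes. In bulk tissue, fewer cells of a type and less RNA per cell cannot be told apart.

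Each library is 1 mouse, with 31370433 to 47495565 counts. Npy had 5 to 15 counts per WT library and 10394 to 11864 per NPY-tet library, so the labels match the targeted gene. The libraries fell into 2 sets by ribosomal RNA, a split the labels do not give. Ribosomal RNA genes took 6.44% to 8.07% of counts in WT replicates 1, 2, 3 and 5 and NPY-tet replicate 1, and 0.0388% to 0.0754% in WT replicate 4 and NPY-tet replicates 2 and 3. Hair shaft genes also set libraries apart. The 9 tested markers summed to 877 CPM (counts per sequenced total, scaled by TMM, the trimmed mean of M-values) in WT replicate 5, to 4.15 to 28.4 CPM in the other WT libraries, and to 208, 717 and 60.2 CPM in NPY-tet replicates 1 to 3.

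RefSeq promoter windows of build GRCm38.p6 matched 8 of the 10 genes by symbol, with 12 windows because some genes have several starts. The 250 bases before the start are printed for 4 genes, 5′ to 3′ on the gene's strand. Fasn and Agpat2 are shown because their values across libraries went together, Elovl6 because its values went the other way, and Mlxipl because its 2 listed starts differ in the motifs they hold. Capitals mark matches, on either strand, to TCACNCCAC (like the sterol response element that SREBP binds), CACGTG (an E-box), CCAAT (bound by NF-Y) and GGGCGG (a GC box). The files' own coordinates are of mm39 and differ from those given with the windows.
Fasn, chr11:120824548-120824797, minus strand: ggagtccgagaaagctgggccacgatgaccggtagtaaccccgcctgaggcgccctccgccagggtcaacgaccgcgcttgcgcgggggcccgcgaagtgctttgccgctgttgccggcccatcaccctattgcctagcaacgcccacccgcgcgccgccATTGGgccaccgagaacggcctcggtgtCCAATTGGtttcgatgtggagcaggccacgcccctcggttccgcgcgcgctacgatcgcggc
Agpat2, chr2:26604418-26604667, minus strand: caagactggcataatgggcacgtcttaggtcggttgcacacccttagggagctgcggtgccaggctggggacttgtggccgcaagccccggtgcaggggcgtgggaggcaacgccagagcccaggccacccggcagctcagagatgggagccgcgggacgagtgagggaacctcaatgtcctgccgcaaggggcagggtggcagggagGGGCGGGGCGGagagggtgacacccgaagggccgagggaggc
Elovl6, chr3:129532136-129532385, plus strand: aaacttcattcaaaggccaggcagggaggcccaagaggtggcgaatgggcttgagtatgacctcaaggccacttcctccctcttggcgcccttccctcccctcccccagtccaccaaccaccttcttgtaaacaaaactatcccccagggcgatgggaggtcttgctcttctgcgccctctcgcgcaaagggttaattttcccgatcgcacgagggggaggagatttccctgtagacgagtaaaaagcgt
Mlxipl start 1, chr5:135106641-135106890, plus strand: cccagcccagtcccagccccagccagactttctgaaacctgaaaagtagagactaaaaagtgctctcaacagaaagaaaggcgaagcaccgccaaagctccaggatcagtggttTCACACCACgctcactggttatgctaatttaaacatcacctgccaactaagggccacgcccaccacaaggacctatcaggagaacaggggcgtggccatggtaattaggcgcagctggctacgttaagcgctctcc
Mlxipl start 2, chr5:135089640-135089889, plus strand: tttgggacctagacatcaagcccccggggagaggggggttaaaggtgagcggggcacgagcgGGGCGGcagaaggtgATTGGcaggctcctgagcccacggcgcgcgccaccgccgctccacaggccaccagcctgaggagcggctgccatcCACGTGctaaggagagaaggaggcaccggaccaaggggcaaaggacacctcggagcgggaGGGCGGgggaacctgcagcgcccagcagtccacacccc

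The Fasn window held 3 CCAAT matches at 90, 62 and 59 bases before the start, of which the last 2, on opposite strands, overlap. The Agpat2 window held 2 overlapping GGGCGG matches, and the Elovl6 window held no match to the 4 motifs. TCACNCCAC was found in 1 of the 12 windows of these genes, at start 1 of Mlxipl, and in 1.05% of 32851 windows of the same length over all genes. CACGTG was found at start 2 of Mlxipl, and in 6.02% of all windows. CCAAT was in 5 of the 12 windows and in 33.8% of all, and GGGCGG was in 6 of 12 and in 32.7% of all. These matches describe the letters and say nothing of binding in these mice.

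No gene of the group passed the test between genotypes, but 2 of the 3 NPY-tet mice had far less of several of them. By edgeR's quasi-likelihood test, adjusted over all genes by the Benjamini-Hochberg method, 0 of 10 had an adjusted p under 0.05 (0.794 to 0.970), where 0.00541% of the tested genes did, a single gene, Npy. By DESeq2 0 of 10 passed as well, where 0.299% of genes did. At an unadjusted p under 0.05, 2 of 10 passed, Fasn and Acaca, both lower in NPY-tet, where 5.98% of all genes passed and 3.55% passed toward lower values. The median log2 fold change of NPY-tet over WT was -0.35 over the 10 genes and 0.0041 over all genes. Fitted values were lower in NPY-tet for 9 of the 10, against 49.3% of all genes, and Elovl6 was the exception. None of the 10 separated the groups without overlap, which 3.78% of all genes did.

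NPY-tet replicates 1 and 2 were alike in these genes and replicate 3 was not. In NPY-tet replicate 1, 6 genes lay below all 5 WT libraries (Fasn, Acaca, Acly, Srebf1, Dgat2 and Agpat2), against 23.7% of all tested genes. Elovl6 lay above, where 22.9% of all genes did. In NPY-tet replicate 2, 6 lay below (Fasn, Acaca, Srebf1, Dgat1, Dgat2 and Agpat2), against 20.0% of all genes. Elovl6 again lay above, where 19.8% of all genes did. In NPY-tet replicate 3 none lay below, where 10.7% of all genes did, and Dgat2 and Agpat2 lay above the WT range, where 10.6% of all genes did. Agpat2 did so only narrowly (112.9 against at most 112.7 CPM), and in FPKM it lay within the WT range (52.48 against at most 52.53). The median of -0.35 became -0.15 without NPY-tet replicate 1 and -0.54 without NPY-tet replicate 3. The 10 genes together took 0.286% to 0.371% of counts in WT libraries and 0.181%, 0.255% and 0.370% in NPY-tet replicates 1 to 3.

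**Figure D1:**
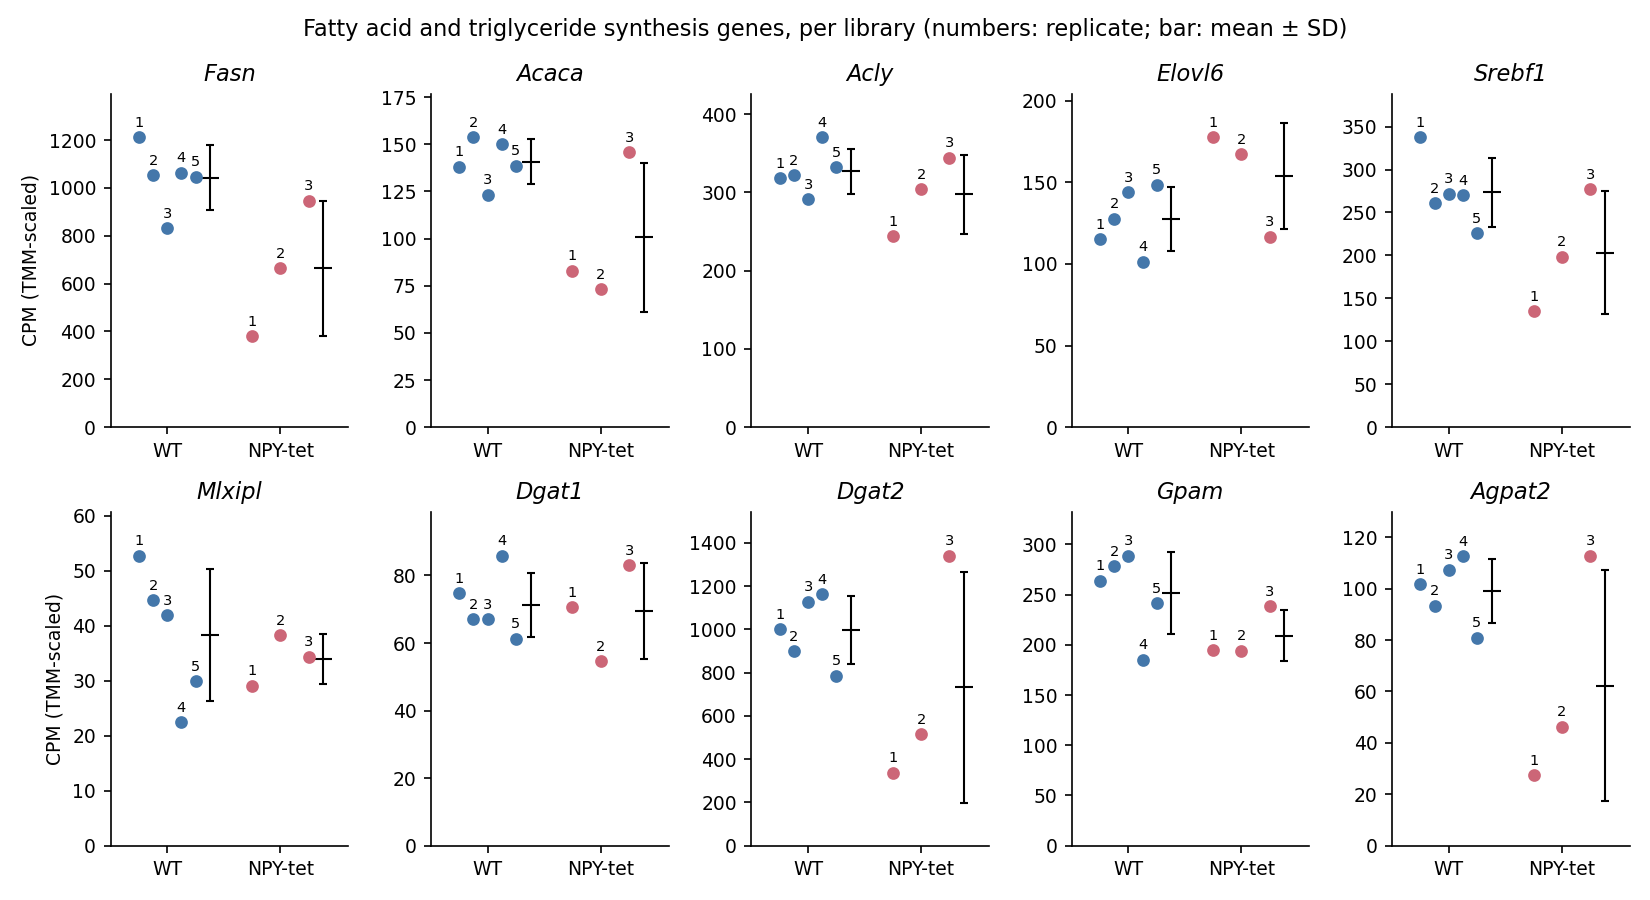
TMM-scaled CPM of the 10 genes in each library, with WT in blue and NPY-tet in red. Points carry their replicate number and bars give the mean ± SD over 5 WT or 3 NPY-tet mice. NPY-tet replicates 1 and 2 lie below the WT points for Fasn, Acaca, Srebf1, Dgat2 and Agpat2 and above them for Elovl6, whereas replicate 3 lies among or above them.

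Of the 4 chain-making enzymes among the 10 genes, Fasn had the largest fitted difference over all 8 libraries, though not in the rRNA-poor libraries alone, where Fasn was at -0.41, Acaca at -0.46 and Elovl6 at 0.47 on the log2 scale. Fasn, which encodes fatty acid synthase, lies on the minus strand of chromosome 11 at 120696672 to 120715373 (mm39). It stood at 1213, 1054, 833, 1064 and 1047 CPM in WT replicates 1 to 5 and at 381, 665 and 946 CPM in NPY-tet replicates 1 to 3. The first 2 NPY-tet mice lay below every WT mouse and the third lay inside the WT range. The log2 fold change was -0.65 (SE 0.26, adjusted p = 0.794 by edgeR), with means of 1042 ± 136 and 664 ± 283 CPM (SD). Without NPY-tet replicate 1 it was -0.37, and without replicate 3 it was -0.99.

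Acaca (chromosome 11, 84020498 to 84292477, plus strand) encodes acetyl-CoA carboxylase 1, which makes malonyl-CoA in the cytosol. Its WT libraries held 138, 154, 123, 150 and 139 CPM, in replicate order. The NPY-tet libraries held 83.0, 73.3 and 146 CPM, so the first 2 were below every WT mouse and the third lay within the WT range. NPY-tet over WT gave -0.48 on the log2 scale (SE 0.20, adjusted p = 0.794 by edgeR). Without NPY-tet replicate 2 it was -0.30, and without replicate 3 it was -0.85. Acly, the ATP citrate lyase gene on the minus strand of chromosome 11 at 100367179 to 100418826, varied far less. It stood at 318, 322, 292, 371 and 333 CPM in WT and at 244, 304 and 345 CPM in NPY-tet mice, with only NPY-tet replicate 1 outside the WT range. Its log2 fold change was -0.14 (SE 0.15, adjusted p = 0.864 by edgeR).

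Elovl6 lengthens palmitate to stearate, and its values went against those of Fasn. The gene spans 129326004 to 129432144 of chromosome 3, plus strand. It stood at 115, 128, 144, 101 and 149 CPM in WT and at 178, 167 and 117 CPM in NPY-tet mice. The 2 NPY-tet mice with the least Fasn and Dgat2 thus had the highest Elovl6 of all 8 mice. Elovl6 had a log2 fold change of 0.27 (SE 0.17, adjusted p = 0.807 by edgeR). Measured per length, as FPKM (fragments scaled to gene length and library size, as the authors deposited them), Fasn was 3.40 to 6.18 times Elovl6 in WT libraries and 1.26, 2.34 and 4.77 times in NPY-tet replicates 1 to 3.

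Of the 2 transcription factor genes, Srebf1 followed Fasn and Mlxipl did not. Srebf1 encodes SREBP-1 and lies on the minus strand of chromosome 11 at 60089915 to 60113407. It stood at 338, 261, 272, 270 and 226 CPM in WT and at 135, 198 and 277 CPM in NPY-tet mice. NPY-tet replicates 1 and 2 were below all WT libraries and replicate 3 was above 4 of the 5. The log2 fold change was -0.43 (SE 0.22, adjusted p = 0.796 by edgeR), and -0.20 without NPY-tet replicate 1. Rai1 on the other strand overlaps the gene, with 1140 to 2098 counts against at least 5235 for Srebf1, and reads of overlapping genes cannot be assigned to a strand in these non-directional libraries.

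Mlxipl (chromosome 5, 135118744 to 135167236, plus strand) encodes ChREBP. It stood at 52.8, 44.6, 41.9, 22.5 and 29.9 CPM in WT and at 29.1, 38.3 and 34.4 CPM in NPY-tet mice. All 3 NPY-tet mice lay within the wide WT range. Mlxipl had a log2 fold change of -0.18 (SE 0.25, adjusted p = 0.896 by edgeR), and -0.032 without WT replicate 1. It was 0.68 among the libraries poor in ribosomal RNA, where WT replicate 4, the lowest of all 8, is the only WT mouse. The counts cover the gene as a whole, so its alpha and beta transcripts, which begin at different starts, are not separated.

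Of the triglyceride enzymes, Dgat2 and Agpat2 varied widely among NPY-tet mice, and Dgat1 and Gpam varied less. Dgat2 encodes a diacylglycerol acyltransferase of the endoplasmic reticulum and lipid droplets, and lies on the minus strand of chromosome 7 at 98802865 to 98831926. It stood at 1001, 899, 1127, 1163 and 785 CPM in WT and at 338, 515 and 1341 CPM in NPY-tet mice. NPY-tet mice thus held the 2 lowest values and the highest value of all 8. The log2 fold change was -0.44 (SE 0.38, adjusted p = 0.834 by edgeR). It was -1.22 without NPY-tet replicate 3, -0.094 without replicate 1 and -0.24 without replicate 2.

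Agpat2 encodes the acyltransferase that adds the second chain, and its loss in people causes generalized lipodystrophy. The gene lies on the minus strand of chromosome 2 at 26483069 to 26494429. It stood at 102, 93.4, 107, 113 and 80.9 CPM in WT and at 27.4, 46.2 and 113 CPM in NPY-tet mice, the same order of mice as for Dgat2 within NPY-tet. Agpat2 had a log2 fold change of -0.67 (SE 0.40, adjusted p = 0.804 by edgeR). It was -1.42 without NPY-tet replicate 3 and -0.31 without replicate 1. Egfl7, an endothelial gene on the other strand, overlaps Agpat2 and had 462 to 1131 counts per library, against at least 1063 for Agpat2. How far its reads enter the count was not tested.

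Dgat1 encodes the other diacylglycerol acyltransferase, unrelated in sequence to Dgat2, and lies on the minus strand of chromosome 15 at 76386215 to 76396153. It stood at 74.8, 67.0, 67.0, 85.9 and 61.2 CPM in WT and at 70.5, 54.6 and 83.0 CPM in NPY-tet mice. NPY-tet replicate 2 lay below the WT range and the other two within it, with a log2 fold change of -0.037 (SE 0.16, adjusted p = 0.970 by edgeR). It changed sign without WT replicate 4 (0.044) and without NPY-tet replicate 2 (0.11). Per length, Dgat2 was 12.7 to 16.7 times Dgat1 in WT libraries and 4.74, 9.35 and 16.0 times in NPY-tet replicates 1 to 3.

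Gpam encodes the mitochondrial glycerol-3-phosphate acyltransferase, which adds the first chain, and lies on the minus strand of chromosome 19 at 55055700 to 55115670. It stood at 264, 278, 289, 185 and 241 CPM in WT and at 195, 194 and 238 CPM in NPY-tet mice. Every NPY-tet value lay within the WT range, which WT replicate 4 widened downward. Its log2 fold change was -0.27 (SE 0.17, adjusted p = 0.807 by edgeR), and it was 0.21 among the libraries poor in ribosomal RNA.

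Levels of different genes were compared per length, as deposited FPKM with the length the file lists. In WT skin Dgat2 was highest, at 319 ± 50.6 FPKM (SD, n = 5), followed by Fasn at 94.0 ± 11.9 and Acly at 61.3 ± 5.58 FPKM. Srebf1, Agpat2 and Gpam stood at 47.9 ± 6.82, 46.0 ± 5.78 and 37.3 ± 6.02 FPKM. Dgat1 and Elovl6 stood at 23.0 ± 3.09 and 19.6 ± 3.05 FPKM, and Acaca and Mlxipl at 8.15 ± 0.707 and 6.83 ± 2.12 FPKM. The ranges of neighbours in this order did not overlap between Dgat2 and Fasn, Fasn and Acly, or Elovl6 and Acaca, and overlapped in the 6 other steps. In NPY-tet skin the order was the same down to Srebf1, and neighbours did not overlap only between Dgat2 and Fasn and between Dgat1 and Mlxipl. Dgat2 spread there from 108 to 431 FPKM and Agpat2 from 12.7 to 52.5 FPKM.

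**Figure D2:**
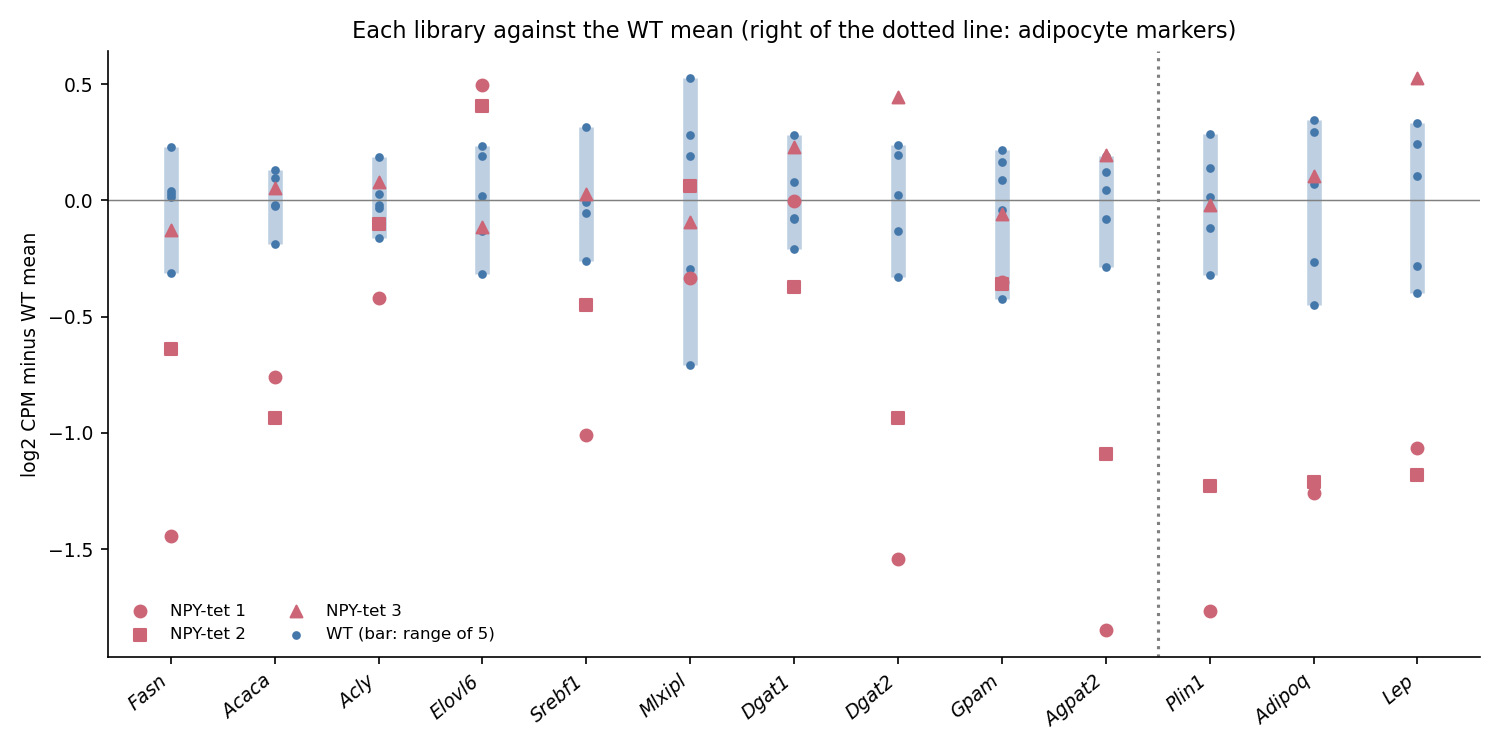
Difference of each library's log2 CPM from the WT mean for the 10 genes and, right of the dotted line, 3 adipocyte markers. Blue points are the 5 WT libraries with a bar over their range, and red symbols are the 3 NPY-tet libraries. As for Fasn, Dgat2 and Agpat2, the points of Plin1, Adipoq and Lep lie below the WT range in NPY-tet replicates 1 and 2 and within or above it in replicate 3; replicate 1 is lowest for all but Lep, where replicate 2 is.

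Summed, markers of white fat cells lay below the WT range in NPY-tet replicates 1 and 2, as Fasn, Dgat2 and Agpat2 did. All 14 tested markers had lower fitted values in NPY-tet (median -0.43). By edgeR 0 of 14 passed and 5 had an unadjusted p under 0.05, where 5.98% of all genes did. By DESeq2 1 passed, the beta-3 adrenoceptor gene Adrb3 (chosen after its values were seen), where 0.299% of all genes did. Without the filter on low counts edgeR called Adrb3 as well (adjusted p = 0.0180), where 0.0647% of all genes were called. Adrb3 stood at 55.0, 79.9, 44.4, 61.8 and 67.8 CPM in WT and at 29.3, 34.6 and 35.7 CPM in NPY-tet mice, without overlap. It was 1 of 14 markers to separate the groups, where 3.78% of all genes did. The summed level of the 14 markers was 6136 to 10080 CPM in WT libraries and 5391, 4108 and 8659 CPM in NPY-tet replicates 1 to 3. It was thus lowest in replicate 2, whereas the 10 genes summed to 1679 CPM in replicate 1 and 2256 CPM in replicate 2. The adiponectin gene Adipoq stood at 524, 662, 801, 774 and 462 CPM in WT and at 263, 272 and 677 CPM in NPY-tet mice. The leptin gene Lep stood at 414, 541, 633, 595 and 381 CPM in WT and at 241, 222 and 724 CPM in NPY-tet mice. As for Fasn and Dgat2, NPY-tet replicates 1 and 2 held the lowest values of the 8 mice. With the mean log2 CPM of these markers as a covariate, the median of the 10 genes was -0.15, with Dgat2 at 0.12, Agpat2 at -0.15, Fasn at -0.47 and Elovl6 at -0.024 on the log2 scale, none of them past the threshold by edgeR, where 0.0108% of all genes were. This mean was itself lower in NPY-tet replicates 1 and 2 (7.90 and 7.70) than in WT libraries (8.22 to 8.79). The fit thus cannot separate fat cell content from genotype or from less RNA per cell. The part of fat cell content in the values was not tested.

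The 10 genes were also set against Plin1, the lipid droplet coat protein gene of fat cells (chosen after its values were seen). Plin1 stood at 648, 592, 707, 783 and 514 CPM in WT and at 189, 274 and 633 CPM in NPY-tet mice. The ratio of Agpat2 to Plin1, in FPKM, was 0.314 to 0.345 in WT and 0.317, 0.369 and 0.389 in NPY-tet replicates 1 to 3. Agpat2 itself ranged from 27.4 to 113 CPM, so its ratio to Plin1 varied far less than the gene, which need not hold for another marker. The ratio of Dgat2 to Plin1 was 2.24 to 2.41 in WT and 2.69, 2.84 and 3.19 in NPY-tet mice, without overlap. The ratios of Acly, Gpam, Elovl6, Srebf1, Mlxipl and Dgat1 lay above the WT range in both NPY-tet replicates 1 and 2. Elovl6 was 0.0936 to 0.209 times Plin1 in WT and 0.681, 0.442 and 0.133 times in NPY-tet replicates 1 to 3, and Gpam was 0.165 to 0.328 times in WT and 0.719, 0.494 and 0.263 times. The Acly ratio was 0.363 to 0.570 in WT and 1.14, 0.978 and 0.479 in NPY-tet mice. Srebf1 was 0.285 to 0.431 times Plin1 in WT and 0.589, 0.598 and 0.361 times in NPY-tet mice, and Mlxipl was 0.0241 to 0.0684 times in WT and 0.129, 0.117 and 0.0456 times. Dgat1 was 0.144 to 0.181 times Plin1 in WT and 0.568, 0.303 and 0.199 times in NPY-tet mice, above WT in all 3. Fasn and Acaca left the WT range in 1 mouse each. The Fasn ratio was 0.500 to 0.865 in WT and 0.856, 1.03 and 0.635 in NPY-tet mice, and the Acaca ratio was 0.0474 to 0.0735 in WT and 0.120, 0.0729 and 0.0627. Plin1 itself lay below the WT range in NPY-tet replicates 1 and 2, so any gene that fell less than Plin1 has a higher ratio there. Gpam and Mlxipl, for example, lay within the WT range in CPM in all 3 NPY-tet mice. Cidec, another lipid droplet gene among the white fat cell markers, was also chosen after its values were seen. It stood at 719, 748, 1043, 1107 and 729 CPM in WT and at 569, 372 and 1144 CPM in NPY-tet mice. Among NPY-tet mice Cidec was lowest in replicate 2, where Plin1 was lowest in replicate 1. Ratios to markers other than Plin1 were not taken and can differ. The share of all genes whose ratio to Plin1 separates the groups was not taken either. These ratios are descriptions and were not tested.

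**Figure D3:**
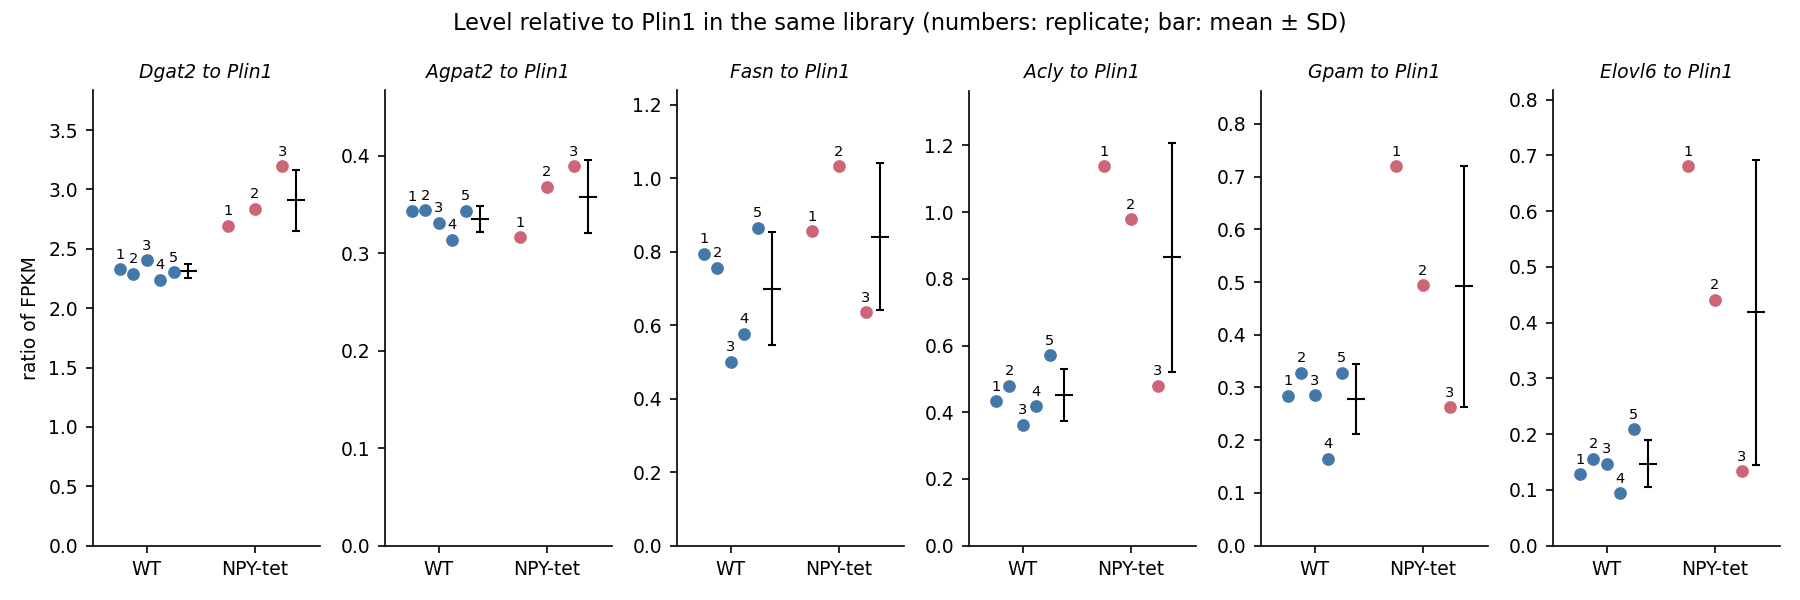
Ratio of the FPKM of 6 genes to that of Plin1 within each library, with replicate numbers and the mean ± SD beside each group. Dgat2 and Agpat2 keep nearly constant ratios in the WT mice (2.24 to 2.41 and 0.314 to 0.345). The ratios of Acly, Gpam and Elovl6 are highest in NPY-tet replicates 1 and 2, where Plin1 itself is lowest.

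Other cell types of skin were read from their markers. Sebaceous gland markers, which belong to the other main lipid-making cell of skin, had higher fitted values in 11 of 12 (median 0.58). By edgeR 0 of 12 passed, with 6 at an unadjusted p under 0.05, where 5.98% of all genes were. Their summed level was 985 to 1191 CPM in WT and 1338, 1476 and 1171 CPM in NPY-tet libraries. The desaturase gene Scd3 stood at 49.4, 79.0, 83.9, 60.9 and 74.1 CPM in WT and at 105, 117 and 97.6 CPM in NPY-tet mice. Awat1, a wax ester synthase gene, stood at 10.4, 13.9, 16.9, 21.8 and 15.1 CPM in WT and at 37.8, 30.2 and 26.4 CPM in NPY-tet mice. Both lay above the WT range in all 3 NPY-tet mice, unlike any of the 10 genes. Of the 12 markers 4 did so, where 3.78% of all genes separated the groups in either direction. By DESeq2 2 of 12 passed, where 0.299% of all genes did. These were Awat1 and the elongase gene Elovl3, the latter chosen after its values were seen. Without the filter on low counts edgeR called the same 2 genes, Awat1 with an adjusted p of 0.0195 and Elovl3 with 0.0180. In that fit 0.0647% of all genes were called.

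Markers of thermogenic fat cells had a median of -0.19 over 5 tested, with the uncoupling protein gene Ucp1 at 0 counts in 7 libraries and 6 counts in the other, and Cidea at 26.8 ± 5.16 and 36.1 ± 5.49 CPM. Keratinocyte markers had a median of -0.079, with the basal keratin genes Krt5 at 4111 ± 895 and 3768 ± 1114 CPM and Krt14 at 2179 ± 398 and 1881 ± 584 CPM. Skeletal muscle markers had a median of -0.43 over 8, with the actin gene Acta1 at 16810 ± 4874 and 10690 ± 3890 CPM and the creatine kinase gene Ckm at 4669 ± 1481 and 3189 ± 1157 CPM. Macrophage markers had a median of -0.34 over 6, with Cd68 at 52.9 ± 11.4 and 30.7 ± 10.6 CPM and Adgre1 at 57.0 ± 7.35 and 42.0 ± 9.53 CPM. None of these passed by edgeR or DESeq2. At an unadjusted p under 0.05 by edgeR, 1 thermogenic gene, Cidea, was higher. Of the macrophage genes 1 was higher and 3 were lower at that level, which 5.98% of all genes passed. Immediate early and stress genes summed to 425 to 510 CPM in WT and to 698, 630 and 527 CPM in NPY-tet libraries, without overlap. Of these 6 genes 0 passed by edgeR and 2 by DESeq2, where 0.299% of all genes did. The 2 were Fos and Egr1, both chosen after their values were seen. The part of these differences in the values of the 10 genes was not tested.

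Hair growth is known to go with a thicker dermal fat layer. NPY-tet replicates 1 and 2 had hair shaft keratins, with Krt31 at 27.4 and 88.2 CPM and Krt33a at 31.3 and 115 CPM. So had WT replicate 5, at 130 and 149 CPM, whose Fasn (1047 CPM) stood at the WT mean and whose Dgat2, Agpat2 and Adipoq were the lowest of the WT mice but above those of NPY-tet replicates 1 and 2. The other 4 WT mice had at most 2.60 CPM of Krt31, and NPY-tet replicate 3 had 4.64 CPM. By the summed hair shaft markers NPY-tet replicate 3 (60.2 CPM) also lay above those 4 WT mice (at most 28.4 CPM). The part of hair growth in the values of the fatty acid and triglyceride synthesis genes was not tested.

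The rest of the pathway was taken from lists of other genes in the same steps. None of the genes tested in these 7 lists passed by edgeR or by DESeq2 over all 8 libraries. At an unadjusted p under 0.05, 3 genes of chain making were higher, and 1 gene each of precursor supply, chain making, glycerolipid assembly and regulators was lower. Over all genes 5.98% passed at that level. Precursor supply, which provides cytosolic acetyl units and NADPH, was lower in fitted value for 7 of 8 genes (median -0.27). Idh1 stood at 101 ± 12.6 and 80.2 ± 7.70 CPM with no overlap between the groups. It was 1 of 8 to separate them, where 3.78% of all genes did. The malic enzyme gene Me1 stood at 292 ± 23.6 and 239 ± 35.0 CPM. The citrate carrier gene Slc25a1 stood at 150, 124, 152, 161 and 123 CPM in WT and at 56.4, 92.1 and 151 CPM in NPY-tet mice, the order seen for Fasn.

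Genes of chain making, desaturation and elongation had a median of -0.049, with 4 of 12 higher and 8 lower in fitted value. Elovl7, another elongase gene, stood at 20.1, 27.6, 31.1, 35.9 and 32.9 CPM in WT and at 90.9, 57.0 and 32.6 CPM in NPY-tet mice, so that it was highest in the same 2 mice as Elovl6. Acacb, the mitochondrial acetyl-CoA carboxylase whose product restrains fatty acid oxidation, stood at 293, 263, 325, 224 and 309 CPM in WT and at 521, 333 and 328 CPM in NPY-tet mice. It lay above the WT range in all 3, narrowly in replicates 2 and 3, with a log2 fold change of 0.48 (SE 0.19, adjusted p = 0.794 by edgeR). Of the 12 genes 1, Acacb, separated the groups, where 3.78% of all genes did. Its cytosolic relative Acaca lay below the WT range in NPY-tet replicates 1 and 2 and within it in replicate 3. Fads3 stood at 181, 194, 215, 228 and 177 CPM in WT and at 88.5, 93.6 and 195 CPM in NPY-tet mice. Thrsp, the lipogenic helper known as Spot 14 (chosen after its values were seen), stood at 114, 135, 161, 166 and 159 CPM in WT and at 30.0, 43.9 and 136 CPM in NPY-tet mice. Fads3 and Thrsp thus split the NPY-tet mice as Fasn did. The desaturase genes Scd1 and Scd2 of the same list (also chosen after their values were seen) did not. They lay below the WT range only in NPY-tet replicate 1, at 1416 and 74.8 CPM. In NPY-tet replicate 2 they stood within it, at 2689 and 185 CPM. Without NPY-tet replicate 3, 2 of the 12 genes of chain making passed by edgeR and 0 of the 10 genes described did, where 0.0418% of all genes did.

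Glycerolipid assembly had a median of -0.13 over 14 genes, 5 higher and 9 lower. Mogat1, a monoacylglycerol acyltransferase gene, stood at 4.60, 3.87, 5.06, 5.56 and 3.01 CPM in WT and at 0.953, 1.33 and 3.14 CPM in NPY-tet mice. Gpd1, which makes glycerol phosphate, stood at 450, 453, 589, 446 and 360 CPM in WT and at 114, 264 and 436 CPM in NPY-tet mice. Both had their lowest values in NPY-tet replicates 1 and 2. Agpat1, a relative of Agpat2, stood at 79.3 ± 12.4 and 66.8 ± 8.28 CPM. Acyl-CoA synthetases had a median of 0.097 over 5 genes, with Acsl1 at 401 to 489 CPM in WT and 311 to 514 CPM in NPY-tet mice, Acsl4 at 26.6 ± 3.49 and 30.2 ± 8.03 CPM and Acsl5 at 167 ± 24.5 and 179 ± 9.60 CPM.

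Regulators had a median of -0.015 over 14 genes. Insig1, which holds SREBP in the endoplasmic reticulum and is itself an SREBP target, stood at 80.1, 77.5, 76.5, 81.5 and 82.4 CPM in WT and at 46.0, 63.3 and 73.6 CPM in NPY-tet mice, below the WT range in all 3. Its log2 fold change was -0.39 (SE 0.15, adjusted p = 0.791 by edgeR). Of the 14 regulators 1, Insig1, separated the groups, where 3.78% of all genes did. Its relative Insig2 stood at 59.3 ± 8.51 and 74.6 ± 16.0 CPM, and the liver X receptor gene Nr1h3, which acts on Srebf1, at 40.7 ± 7.97 and 33.4 ± 9.19 CPM. Known glucose-response targets of ChREBP had a median of -0.100 over 5 tested genes, with Txnip at 830 ± 226 and 1069 ± 588 CPM, Arrdc4 at 31.1 ± 5.84 and 37.0 ± 9.32 CPM and Khk at 19.2 ± 2.51 and 17.4 ± 1.76 CPM. Lipolysis and oxidation genes, which act against storage, had a median of 0.044 over 13. The hormone-sensitive lipase gene Lipe stood at 443, 438, 588, 588 and 354 CPM in WT and at 218, 208 and 508 CPM in NPY-tet mice, again lowest in replicates 1 and 2, while Cpt2 and Cpt1a stood at 76.7 ± 11.2 and 64.2 ± 12.1 CPM and at 88.2 ± 11.1 and 98.1 ± 15.7 CPM.

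**Figure D4:**
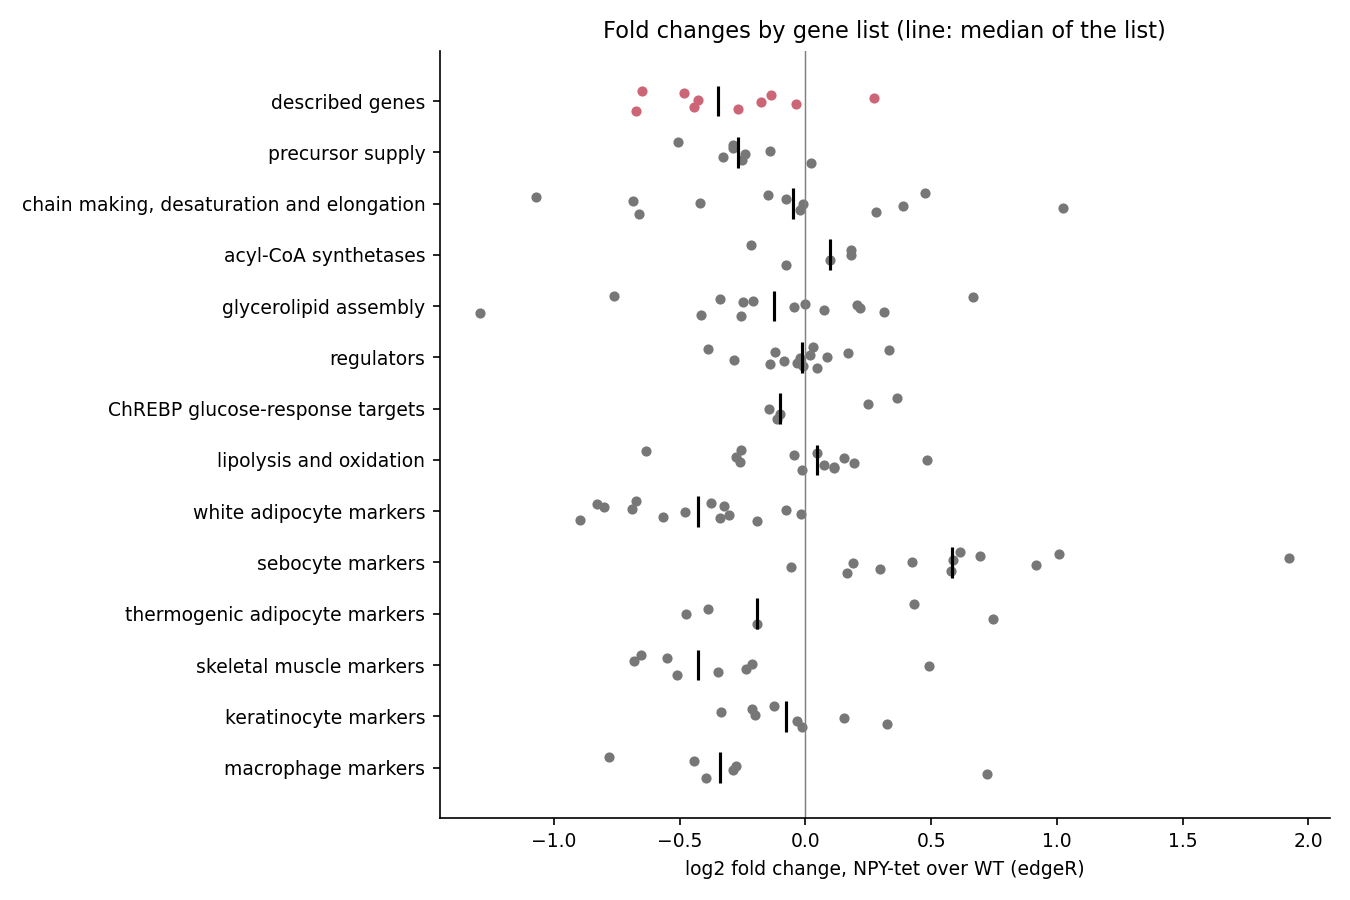
Log2 fold changes of NPY-tet over WT by edgeR for every tested gene of the 10 described (red) and of the other lists except hair shaft and immediate early genes (grey), with a line at each list's median. The described genes lie between -0.67 and 0.27 around a median of -0.35, white adipocyte markers all lie below 0, and sebocyte markers lie above 0 in 11 of 12.

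Within the ribosomal RNA sets the values rest on an arm of 1 mouse. Among the 5 rRNA-rich libraries, which hold NPY-tet replicate 1 alone, 3 of the 10 genes passed by edgeR, where 1.66% of all genes did, with the spread taken from the 4 WT mice. These were Agpat2 (log2 fold change -1.79, adjusted p = 0.0033), Dgat2 (-1.48, adjusted p = 0.0270) and Fasn (-1.42, adjusted p = 0.0323). Among the 3 rRNA-poor libraries, with WT replicate 4 as the only WT mouse, 0 of 10 passed, where 1.17% of all genes did, and Agpat2, Dgat2 and Fasn stood at -0.51, -0.33 and -0.41. Elovl6 was 0.43 and 0.47 in the rich and the poor set. With this set as a covariate over all 8 libraries 0 of 10 passed, where 0.0595% of all genes did, the median was -0.45, and Fasn was -0.96 (adjusted p = 0.329 by edgeR). Ribosomal RNA content and the identity of single mice cannot be told apart within these sets.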

How the data were processed

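Whole-skin RNA of 8 mice was sequenced as poly-T selected, non-directional libraries, per the labels. The deposited count table holds whole-number counts per gene, and the deposited FPKM table holds counts divided by the listed gene length and by an effective library size constant within a library, as the values show. Per the submitters' processing notes, the build was mm39 and the tools included featureCounts 1.5.0-p3, HISAT2 2.0.5, CASAVA and DESeq2 1.20.0. The role of each, the annotation release and the handling of multi-mapping reads are not given in the sources used here. Columns were joined to mice by the names in the labels. Library names in the labels carry another mouse number than the titles for 6 samples, with the same genotype, so which animal a replicate number stands for is uncertain.

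Counts of all genes were tested with edgeR 4.0.16 in R 4.3.3 (filterByExpr, TMM, robust quasi-likelihood F-test, two-sided, genotype as the only term). P-values were adjusted by Benjamini-Hochberg over 18495 genes, with a threshold of 0.05. SE is the size of the fold change (log2) over the root of F. CPM are TMM-scaled, and ± is the SD over mice. Depth limits counting error only. No column of per-sample values was left unused. Scripts were tested on simulated data.

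The genes and lists were chosen with earlier results of these data known. Named are the 10 genes, up to 3 genes of smallest p from each pathway list, the first 2 markers of each marker list and, for likeness, 5 genes by correlation; exceptions are marked. Krt85 of the hair list had no row in the tables used. Alternatives were other size factors, no filter or a stricter filter (1 CPM in 3 libraries), DESeq2 1.42.0, limma-voom and limma 3.58.1 on log2 FPKM (pseudocounts 1 and 0.1, mean FPKM of at least 0.1), a replicate block, the ribosomal RNA set (boundary 1% of counts) or white adipocyte score as covariate, each set alone, a library size without ribosomal RNA genes, and leaving out each library.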

Additional observations from a re-analysis of the deposited data

Results flagged for a closer look

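Of 54 WT values per gene tested for a library far from the other 4, 3 stood apart, where chance gives about 1 in 20. Krt31 stood at 130 CPM in WT replicate 5 and at 0.08 to 2.6 CPM in the other WT mice. Krt33a stood at 149 CPM in the same mouse and at 0.076 to 1.62 CPM in the others. The acyl-CoA synthetase gene Acsl5 stood at 210 CPM in WT replicate 4 and at 146 to 162 CPM in the others. None of the 10 fatty acid and triglyceride synthesis genes had such a library among the WT mice, and groups of 3 were not tested.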

How the results depend on the processing

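For the 10 genes, 130 of 140 fold changes under other settings and 78 of 80 with a library left out kept direction and side of the threshold, and for the other named genes 573 of 616 and 344 of 352 did. The 10 genes began at an adjusted p of at least 0.79 by edgeR, so keeping the side was nearly given. Sizes moved more: with a library left out Dgat2 ran from -1.22 to -0.094 and Agpat2 from -1.42 to -0.31. The count of genes called over the whole table, 1 by edgeR, was 21 with no filter on low counts, 61 by DESeq2, 3 by limma-voom, 2 by limma on FPKM with either pseudocount, 11 with the ribosomal RNA set and 2 with the white adipocyte score as a covariate, 332 in rRNA-rich libraries and 227 in rRNA-poor ones alone, and 1 to 8 with a library left out. The count of the 10 genes called was 3 in the rRNA-rich libraries and 0 elsewhere. Their median of -0.35 was -0.45 when adjusted for the ribosomal RNA set and -0.15 with the adipocyte score as a covariate, -0.62 in the rRNA-rich libraries, and -0.54 to -0.15 with a library left out. Signs turned as follows, and for genes outside the adipocyte score the cause was not tested. That score holds Adipoq and Lep, so the fit with it largely takes out their own difference. Adjusted for the ribosomal RNA set, Mlxipl was 0.032. In the rRNA-rich libraries Dgat1 was 0.084 and Krt33a and Krt31 were -0.26 and -0.26. In the rRNA-poor libraries Mlxipl was 0.68, Gpam 0.21, Acsl4 -0.012, Acsl5 -0.26, Agpat1 0.052, Arrdc4 -0.31, Txnip -0.61, Cidea -0.11, Acta1 0.39 and Ckm 0.36. With the adipocyte score as a covariate Elovl6 was -0.024, Dgat1 0.21, Dgat2 0.12, Acsl1 0.084, Acsl4 -0.0072, Nr1h3 0.15, Khk 0.015, Adipoq 0.013, Lep 0.35, Krt33a -1.72, Krt31 -1.61, Krt5 0.088, Cptp 0.020, Entpd6 0.018, Apcdd1 0.011 and Ap3b2 0.026. With a library left out the range was -0.18 to 0.11 for Dgat1, -0.018 to 0.36 for Acsl4, -0.18 to 0.61 for Txnip, -0.34 to 0.087 for Krt5, -0.43 to 0.012 for Krt14, -0.74 to 5.75 for Krt31 and -0.77 to 6.47 for Krt33a.

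With the replicate number as a block 2 genes were called over the whole table, 0 of the 10, and their median was -0.49. Deviations of same-numbered mice correlated at -0.044, -0.11 and 0.30 for numbers 1 to 3, and those of mice with different numbers at -0.45 to 0.35. The main fit used no pairing, and these few values cannot show whether the numbers carry one. With 3 NPY-tet mice of which 1 differs from the other 2, the spread between mice limits what could be called.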

Other observations

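The genes outside all lists whose values over the 8 libraries were most like those of the 10, by the median Pearson r with them on log2 CPM, were Cptp (0.88), Entpd6 (0.88), Apcdd1 (0.88), Ap3b2 (0.88) and Angpt4 (0.87). They were picked as the highest of all tested genes, so the r is a description with no test, and the libraries are shared. The 10 genes did not share a profile. Elovl6, for example, had an r of -0.79 with Fasn and -0.84 with Dgat2, and Mlxipl had 0.26 and 0.14. A high median r thus does not mean likeness to each of the 10. Cptp encodes a ceramide-1-phosphate transfer protein and stood at 34.6 CPM in WT and 31.3 CPM in NPY-tet skin on average. Apcdd1, a Wnt inhibitor gene, stood at 217 and 189 CPM, and Angpt4, an angiopoietin gene, at 2.96 and 1.12 CPM.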
